A study of Drosophila melanogaster with 6 samples.

Results

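FlyBase transcripts whose probes were detected in heads of wild-type flies, and in no head preparation of the Top3b26 topoisomerase mutant, were described probe by probe. FlyBase, the database of the fly genome, gives each annotated transcript an FBtr number, and 21729 of the 32162 probes on the array carried one, for 15995 transcripts. A probe was taken as a member when the scanner software had flagged most of its spots (over 50%) as well above background on all 3 WT arrays and on none of the 3 Top3b26 arrays. This held for 46 probes of 43 transcripts, which was 0.256% of the 17966 FlyBase probes detected on all WT arrays. The members were chosen by the flags of this same contrast, so their lower signal in Top3b26 is given as a description, without a test.

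The WT group was the w1118 stock with wild-type TOP3B, bought from the Bloomington stock center, and the mutant group carried the TOP3B26 allele (Top3b26) in a W1118 background. The allele came from remobilizing a P-element and the flies were a gift from another laboratory, so other differences between these stocks cannot be told apart from the mutation. Both groups were adults, and total RNA of sieved heads was hybridized to 1 one-colour Agilent array for each of 3 independent preparations per group. In whole heads, fewer cells of a type and less RNA per cell cannot be told apart.

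Top3β is a type IA topoisomerase, an enzyme that cuts and rejoins single strands, and it acts on RNA as well as DNA. In flies it works with the scaffold protein TDRD3, and it has been linked to the RNA interference machinery and to the silencing of genes in heterochromatin, the compact part of the genome. The reference gene table used here paired none of the 43 transcripts with a gene, so they are given by identifier, with no gene name or role. The Agilent number of a probe is given where probes of a transcript are set side by side.

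The arrays differed in brightness, with a median processed signal of non-control spots from 279 to 1604 (arbitrary units) and from 71.1% to 81.2% of spots well above background. Top3b26 2 was lowest and Top3b26 3 highest in both. The lowest signal of any probe called well above background on WT arrays 1 to 3 was 16.8, 28.7 and 50.5 in that order, while Top3b26 arrays 1 to 3 had 24.2, 20.5 and 37.3. The negative control spots gave medians of 4.67, 6.73 and 11.1 for WT, compared with 5.82, 4.87 and 8.61 for the mutant arrays in the same order. Of 31 marker genes listed for head, glia, fat body, muscle, testis, ovary, accessory gland and male cells, only roX1 and roX2 had a named probe. The head label was therefore not checked against defining genes. A level is a log2 difference from the mean of the array, scaled so that all arrays have the same SD. Probes named for adult head cDNA clones had median levels between 0.94 and 1.20 for WT, compared with 0.58 to 1.44 for Top3b26. Probes named for adult testis clones, a tissue that sieved heads could carry over, ranged from -1.0 to 0.28 and from -1.70 to 1.94, so both libraries overlapped between the groups. The mean of roX1 and roX2, non-coding RNAs of male dosage compensation, was from 3.42 to 3.99 in WT and from 3.78 to 4.90 in Top3b26. The part of these tissues and of sex in the members' signals was not tested.

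The members spanned a wide range of brightness in WT and were close to the background in the mutant. Their signals ran from 21.0 to 18044 over the WT arrays, with a median of 156, and from 4.23 to 46.7 over the Top3b26 arrays, with a median of 9.73. The mean WT signal (geometric, over 3 arrays) was over 1000 for 9 members, from 100 to 1000 for 21 and under 100 for 16. Its median over members was 147, against 2267 over all FlyBase probes detected on every WT array, so most members were dim even where detected. On the log2 levels every Top3b26 array lay below every WT array for 44 of the 46 members, against 15% of all tested probes and 16.2% of the 18353 FlyBase probes among them. The exceptions were FBtr0076196 and FBtr0073347, both faint on WT 1. The choice of members by the flags nearly fixes this order of the arrays, so nothing is read from the 44.

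**Figure D1:**
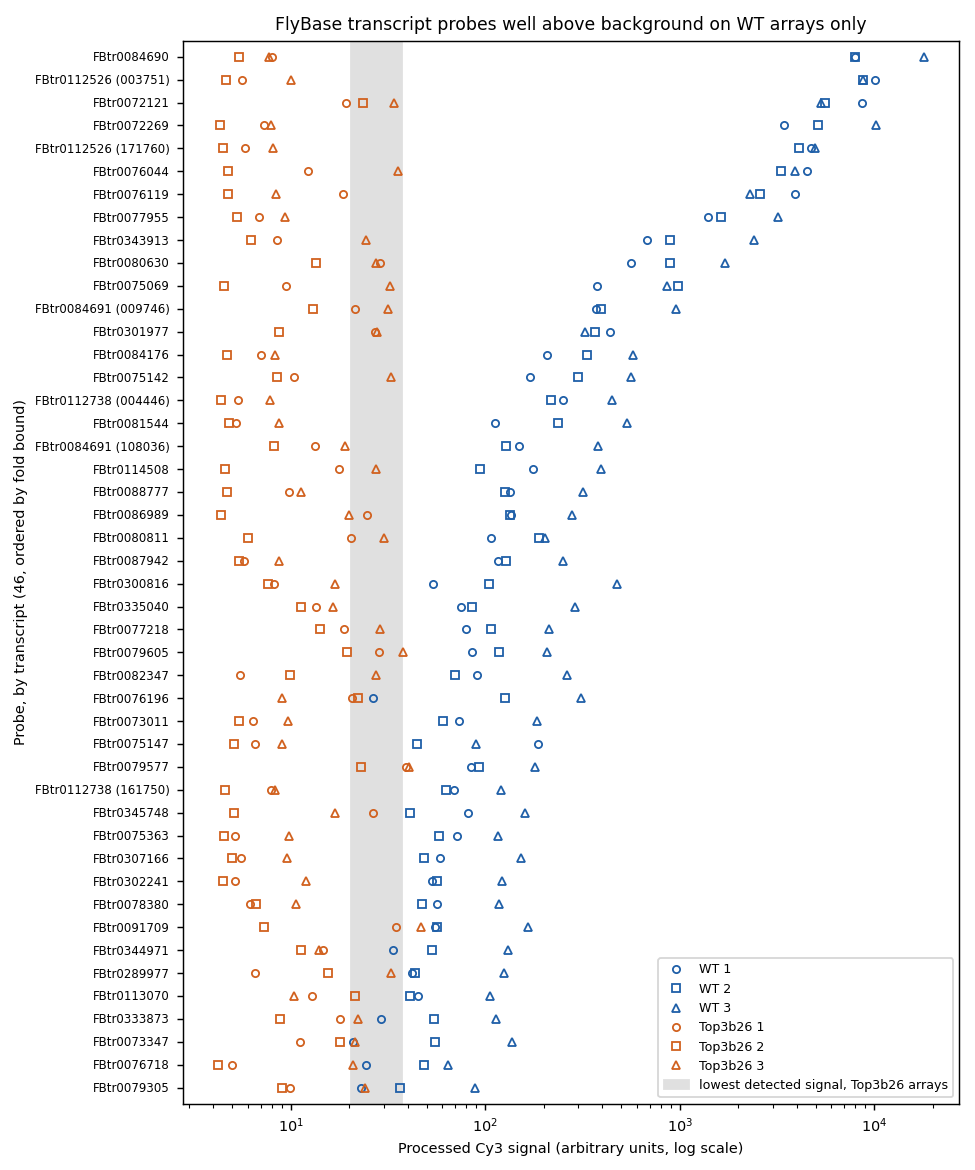
Processed Cy3 signal (arbitrary units, log scale) of each of the 46 probes, 1 row per probe in order of its fold bound, on the 3 WT arrays (blue) and the 3 Top3b26 arrays (orange); circles, squares and triangles are replicates 1, 2 and 3, and the gray band spans the lowest detected signals of the Top3b26 arrays, 20.5 to 37.3. The brightest WT signal is 18044, while no Top3b26 signal exceeds 46.7.

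In 124 of the 138 measurements on Top3b26 arrays the signal did not exceed the lowest one detected on that array, so the fold was computed as a bound. The WT mean level was set against the mean of the Top3b26 arrays, in which each array entered with the probe's own level or with the lowest level detected on that array, whichever was higher. For 10 members the own level was the higher on at least 1 array. For FBtr0079577 it was so on all 3, so its 3.32-fold is the fold of its own scaled levels, with no floor used. The bounds ran from at least 1.56-fold to at least 391-fold, with a median of 5.47. They reached 8-fold for 17 members (37%), 100-fold for 7, and stayed under 2-fold for 2. With another background correction (normexp, with an offset of 50) the bounds of all 46 were smaller, and the 7 over 100-fold were from 18.3-fold to 63.8-fold. The offset was added to every spot and exceeds the highest processed signal of any member on a Top3b26 array, 46.7. It therefore largely fixes that the bounds shrink. The bound depends on how bright the probe was in WT, since the floor of the mutant arrays is nearly fixed.

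The largest bound belonged to FBtr0084690. Its probe A_09_P011256 gave signals of 7989.9, 7958 and 18044 on WT arrays 1 to 3, against 8.0, 5.43 and 7.75 for mutant arrays 1 to 3. The mutant values were near those of the negative controls, and the level was at least 391-fold lower in Top3b26, or at least 63.8-fold under normexp. The scanner software still marked the probe as positive and significant against its background on 2 Top3b26 arrays. The WT arrays were close to each other on this probe, with an SD of 0.08 (log2, n = 3). Within the slides, on which the arrays lay 3 each, the bound was 8.92 (log2) on slide 1, with WT 1, WT 2 and Top3b26 1, and 8.46 on slide 2.

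FBtr0112526 was measured by 2 probes, and both were members. The probe A_09_P003751 gave 10081, 8735 and 8749 in WT and 5.63, 4.62 and 9.96 in Top3b26, a level at least 343-fold lower. The probe A_09_P171760 gave 4732, 4100.2 and 4955 in WT and 5.79, 4.47 and 8.07 in Top3b26, at least 171-fold lower. All 6 mutant signals of these probes lay between 4.47 and 9.96. Both probes met the rule, so their shared on-and-off pattern is fixed by it and is no independent check. Within slide 1 their bounds were 9.15 and 8.06 (log2), and within slide 2 they were 7.42 and 6.59.

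FBtr0072121 gave 8698, 5602 and 5329 in WT, against 19.1, 23.6 and 34.0 in the mutant. Its mutant signals were above those of the negative controls on each array, and it was at least 228-fold lower in the mutant. The highest signal was on WT 1, and the WT SD was 0.99 (log2). Its bound was 8.73 (log2) within slide 1 and 6.60 within slide 2, the widest gap between slides among the 7 members with a bound over 100-fold.

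FBtr0072269 gave 3431, 5167 and 10207 in WT against 7.27, 4.33 and 7.89 in Top3b26, at least 211-fold lower. FBtr0076044 gave 4515, 3329 and 3912 in WT against 12.3, 4.77 and 35.7 in Top3b26, at least 145-fold lower. FBtr0076119 gave 3926, 2593 and 2293 against 18.6, 4.76 and 8.38, at least 107-fold lower. In these 3 transcripts, each with 1 probe on the array, the lowest WT signal was 2293 and the highest mutant signal 35.7. Among the mutant arrays, the signals of FBtr0076044 lay farthest apart on Top3b26 2 and Top3b26 3, which are also the dimmest and the brightest arrays.

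FBtr0084691 was also represented by 2 probes that were both members, at a lower brightness. The probe A_09_P009746 gave 370.3, 393 and 954 in WT and 21.3, 13.1 and 31.6 in Top3b26, at least 19.3-fold lower. The probe A_09_P108036 gave 149.8, 128 and 379 in WT and 13.3, 8.22 and 18.9 in Top3b26, at least 7.21-fold lower. For both, signal in the mutant was small but above the negative controls, and a looser flag of the scanner software, which marks a spot as positive and significant against its background, was set on all 3 Top3b26 arrays.

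FBtr0112738 completed the transcripts with 2 member probes. The probe A_09_P004446 gave 249.6, 217 and 448 in WT and 5.37, 4.38 and 7.85 in Top3b26, at least 10.8-fold lower. The probe A_09_P161750 gave 68.7, 62.5 and 121 in WT and 7.94, 4.60 and 8.31 in Top3b26, at least 2.99-fold lower. The smaller bound of the dimmer probe went with its lower WT signal, as both were at a similar signal in the mutant.

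The stricter flag defined the set, so the label of detected only in wild type holds for it by choice. The label held less for the looser flag. All 46 members were positive and significant on every WT array, which detection there by the stricter flag nearly ensures. In Top3b26 the looser flag was set on none of the arrays for 14 members and on all 3 for 16. These counts went with the number of spots per probe. All of the 14 but the member probe of FBtr0077955 had 2 spots, while most of the 16 had 1. FBtr0072121, with 2 spots and mutant signals of 19.1 to 34.0, had the flag on no mutant array. The 1-spot member probe of FBtr0084690, at 5.43 to 8.0, had it on 2. The share among other FlyBase probes undetected in Top3b26 was not computed, so the 14 are not read as lacking RNA. Of the 138 measurements of members on Top3b26 arrays, 73 were positive and significant. Among the 14 without this flag in Top3b26, 7 had a bound of at least 8-fold, including FBtr0072121, FBtr0076119, FBtr0077955 and the brighter probe of FBtr0112526. The rest of the 17 with such a bound carried the flag on at least 1 Top3b26 array. They include FBtr0084690 and FBtr0076044, with 2 such arrays, and FBtr0072269 and the dimmer probe of FBtr0112526, with 1. If the looser flag had been used in the rule, 27 probes would have been members, 14 of them shared with the 46.

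At the low end, the bounds of FBtr0073347, FBtr0076718 and FBtr0079305 were the smallest. FBtr0073347 gave 21.0, 55.0 and 138 in WT and 11.2, 17.9 and 21.4 in Top3b26, so the groups overlapped in signal and the bound was 2.01-fold. FBtr0076718 gave 24.4, 48.3 and 64.2 in WT and 4.97, 4.23 and 20.8 in Top3b26, with a bound of 1.57-fold. FBtr0079305 gave 23.0, 36.3 and 88.6 in WT and 9.91, 8.97 and 24.0 in Top3b26, with a bound of 1.56-fold and again an overlap in signal. These probes were close to the lowest detected signal on WT 1.

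Probes just outside the rule showed how much a single array decided. On all WT arrays and 1 Top3b26 array, 66 FlyBase probes were detected, and on 2 WT arrays and no Top3b26 array, 41 were. FBtr0299709, by its probe A_09_P120650, gave 1339.8, 1972 and 4176 in WT and 14.1, 4.30 and 58.3 in Top3b26. It was left out only because the 58.3 on Top3b26 3 was well above background, and its bound of 71.5-fold would have placed it ninth among the members. FBtr0113407 gave 209, 275 and 483 in WT and 5.56, 97.9 and 9.94 in Top3b26, and in the mutant was well above background only on Top3b26 2, the dimmest array. FBtr0305125, detected on 2 WT arrays, gave 40.7, 53.2 and 82.6 against 28.1, 14.4 and 51.7.

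The same rule with the genotypes exchanged gave a set of about the same number but of smaller size. It held for 40 probes of 39 transcripts, 0.238% of those detected on all Top3b26 arrays. Their bounds had a median of 2.53-fold, with at least 8-fold for 2 of the 40 (5%) and 100-fold for 0, and the largest was 54.9-fold for FBtr0077917. Among FlyBase probes with a mean signal over 1000 in the group where they were detected, 9 of 11749 were off in Top3b26 and 1 of 11373 was off in WT. From 100 to 1000 these numbers were 21 of 5385 and 6 of 4671. Under 100 the order was opposite, with 16 of 832 and 33 of 749. The WT-only set therefore held more probes in both bands above 100 and fewer under 100, while both sets had many faint probes near the threshold. These are counts from the flags that define the sets, and no test was made of them.

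**Figure D2:**
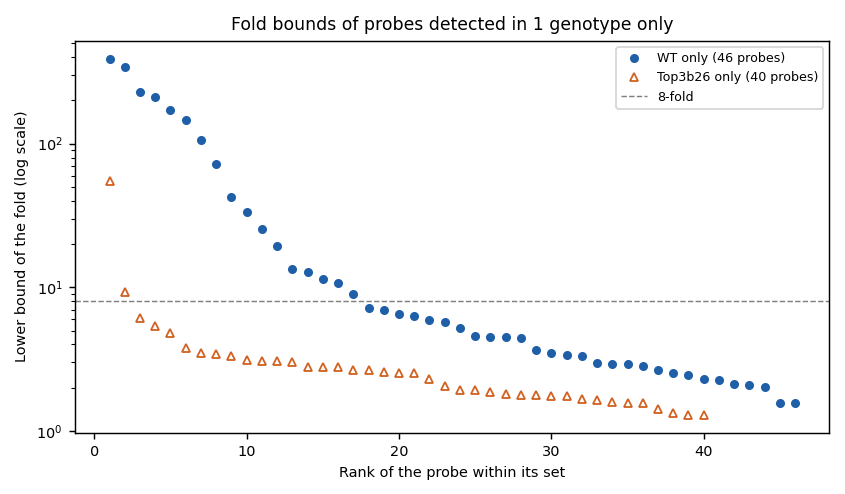
Lower bound of the fold (log scale) of each probe against its rank within its set, for the 46 probes detected in WT only (blue circles) and the 40 detected in Top3b26 only (orange triangles); the dashed line is 8-fold. The WT-only bounds start at 391-fold and 17 lie above the line, against 54.9-fold and 2 for the Top3b26-only set.

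FlyBase probes took 46 of the 107 probes of any kind detected only in WT. As a share of the probes detected on all WT arrays, WT-only probes made up 0.256% of the FlyBase class, 1.24% of the class named for TC clusters of expressed sequence tags, 1.35% of that named for clones and other sequences and 2.36% of the small class with RefSeq accessions. The FlyBase class also had a low share in the opposite direction, at 0.238% against 1.67%, 1.73% and 1.27%. The differences between these classes were not tested.

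Other probes of the member transcripts were then examined. They are the probes that did not meet the rule, so a smaller difference in them is partly fixed by the choice of members. Of the 43 transcripts, 21 had 1 probe on the array and 22 had several. In 3 of these 22 both probes were members, as described above, and the other 19 had 27 further probes. They were read on the same 6 arrays and in the same contrast, so these values are also a description. Of the 27, 12 were detected on all 6 arrays, 2 on none and 13 on some. The difference (Top3b26 minus WT) was below 0 for 22 and above 0 for 5, and it was below 0 for 60.2% of all FlyBase probes and 65% of the tested ones. Of the 12 detected everywhere, 3 were lower in the mutant by a factor of 2 or more. The lower quartile of the difference over all tested FlyBase probes was -0.39 (log2). The share of FlyBase probes at this 2-fold threshold was not computed, so nothing is read from the 3.

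For FBtr0084690, whose member probe had the largest bound, the others behaved differently. The probe A_09_P162845 gave 2975, 2762 and 6966 in WT and 1309.6, 782 and 2175 in Top3b26, well above background on each array. Its mean level went from 3.05 ± 0.14 for WT to 1.51 ± 0.26 for the mutant (log2 ± SD over 3 arrays each), a difference of -1.55 with no overlap. The probe A_09_P169195 was not well above background on any array. In the mutant, 1 of the 3 probes with this identifier was therefore still detected, at a lower level. Whether that probe reads this transcript alone was not tested.

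FBtr0077955 showed the same kind of disagreement. Its member probe A_09_P112505 gave 1400.2, 1621 and 3204 in WT and 6.87, 5.26 and 9.38 in Top3b26, at least 72.3-fold lower. Its other probe A_09_P018141 gave 362, 469 and 899 in WT and 388, 231 and 348 in Top3b26. The levels of the latter overlapped between the groups, at 0.20 ± 0.14 and -0.54 ± 0.74. Signal for this transcript in the mutant thus depended on which probe was read.

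FBtr0343913 had a member probe, A_09_P209525, at 682, 888 and 2396 in WT and 8.51, 6.25 and 24.3 in Top3b26, at least 42.2-fold lower. Of its other probes, A_09_P167275 was detected on WT 3 only, at 148, and A_09_P187335 was detected on 2 WT arrays and 1 Top3b26 array, with the groups overlapping. For FBtr0114508 the member probe A_09_P038601 gave 175, 93.5 and 393 in WT and 17.8, 4.58 and 27.3 in Top3b26, at least 6.93-fold lower. Its other probe was likewise detected on WT 3 alone, at 132, while its WT 1 and WT 2 signals of 4.61 and 6.49 lay among the 5.52, 4.69 and 8.41 of the mutant arrays. FBtr0344971, with 6 probes the most of any member transcript, had a faint member probe with a bound of 2.29-fold. Of its other probes 3 were bright and overlapped between the groups, with differences from -0.21 to 0.15, while A_09_P211401 gave 72.4, 230.5 and 273 in WT and 42.9, 16.6 and 34.4 in Top3b26. For FBtr0075147 the member probe gave 187, 44.4 and 89.1 in WT and 6.53, 5.11 and 9.01 in Top3b26. Its other probe A_09_P177965 gave 1494, 209 and 905 in WT and 3818, 12.0 and 18090 in Top3b26. The latter was well above background on 2 Top3b26 arrays, with its highest signal on Top3b26 3.

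In some transcripts the other probe followed the member. For FBtr0080811 the member probe A_09_P199530 gave 107, 189 and 204 in WT and 20.4, 6.01 and 30.3 in Top3b26, at least 5.95-fold lower. Its other probe A_09_P064076 gave 92.9, 196 and 188 against 37.8, 4.67 and 28.6, with no overlap and detection on 1 mutant array. FBtr0300816 had its other probe at 27.5, 91.9 and 394 in WT and 5.45, 4.37 and 7.76 in Top3b26, missing the rule only because WT 1 was not well above background. Of the 27 other probes, 8 were detected on at least 1 WT array and on no Top3b26 array. Not all of these followed their member. They include the probes of FBtr0343913 and FBtr0114508 seen on WT 3 alone, and A_09_P052801 of FBtr0073347, whose groups overlapped. The share of all FlyBase probes with this pattern was not computed, so nothing is read from the count.

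**Figure D3:**
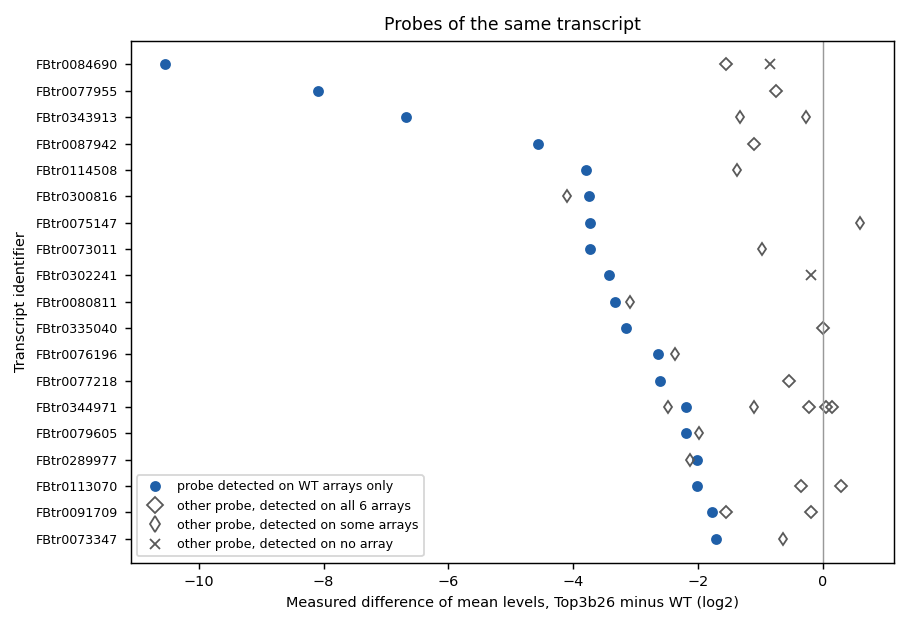
Measured difference of mean levels, Top3b26 minus WT (log2, 3 arrays per group), for the member probes (blue circles) and the other probes (gray) of the 19 transcripts that had both, 1 row per transcript; diamonds were detected on all 6 arrays, thin diamonds on some and crosses on none. FBtr0084690 and FBtr0077955 show gaps between probes, from -10.54 to -1.55 and from -8.10 to -0.74, while the probes of FBtr0080811 and FBtr0079605 lie close together.

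**Figure D4:**
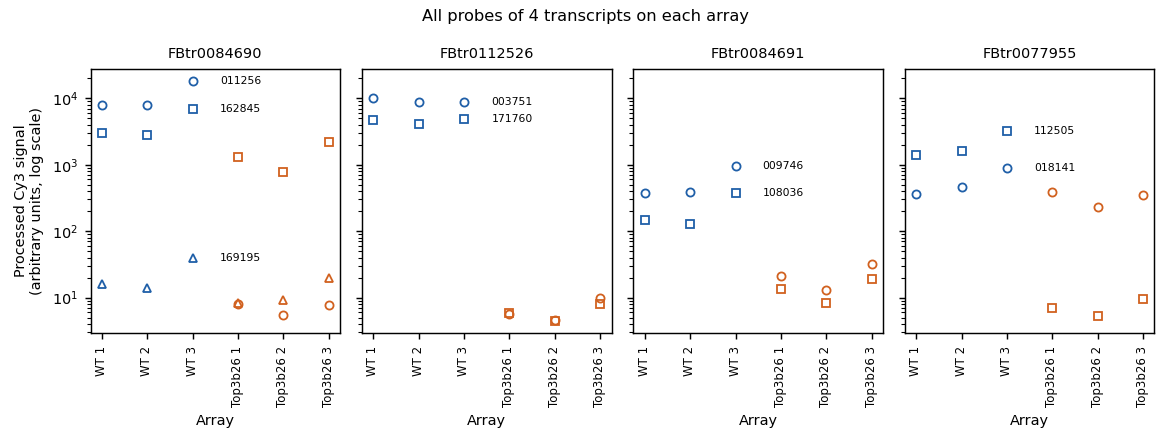
Processed Cy3 signal (arbitrary units, log scale) of every probe of FBtr0084690, FBtr0112526, FBtr0084691 and FBtr0077955 on each of the 6 arrays (WT blue, Top3b26 orange), with 1 marker shape per probe and the end of the probe number beside it. Both probes of FBtr0112526 lie at 4100.2 or more in WT and at 9.96 or less in the mutant, whereas A_09_P162845 of FBtr0084690 and A_09_P018141 of FBtr0077955 keep signals of 231 or more.

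The spread of the members within WT does not use the contrast between the groups. Their WT SD had a median of 0.29 (log2), against 0.21 over all FlyBase probes detected on all WT arrays and 0.39 over 2614 such probes within 1 (log2) of the members' median level. It ran from 0.03 for FBtr0302241 to 1.31 for FBtr0076196. Over members, the highest WT level was on WT 1 for 15 members, on WT 2 for 14 and on WT 3 for 17. The 23 members with 2 spots differed between these by a median of 0.10 (log2) on the WT arrays. The 69 spots of all members were spread over the array, with 11, 21, 20 and 17 in its corners when divided into 4 equal parts.

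In the limma fit over all 23013 tested probes, 29 of the 46 members were called lower at an adjusted p of 0.05 or less and 0 higher, while 46 had an unadjusted p under 0.05. Of all tested probes 0.713% were called lower, and of the tested FlyBase probes 0.67%. The rule used this contrast, so nothing is read from the count. All 17 members with a bound of at least 8-fold were among the 29, but both come from the same levels and contrast, so this is no support for the bounds. With the slide as a block 14 members were called, and with WT 2 left out 0 were. Of the 15 other probes that were tested, 1 was called lower, the probe A_09_P126515 of FBtr0091709, with mean levels of 2.04 ± 0.07 for WT compared with 0.49 ± 0.14 for the mutant (log2 ± SD over 3 arrays each), and 5 had every Top3b26 array below every WT array, against the 15% of all tested probes and 16.2% of tested FlyBase probes given above. The bounds were above 0 for all 46 members within each slide, with medians of 2.69 (log2) on slide 1 and 2.45 on slide 2. The choice of members by the flags nearly fixes this direction, so it is no sign of stability.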

How the data were processed

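RNA of 3 WT and 3 Top3b26 head preparations was read on 1 array each, grouped by the sample titles. Per the file headers, the deposited intensity values are Cy3 signals that Feature Extraction 11.5.1.1 had background-subtracted and corrected for spatial trends, with no scaling between arrays. The deposited flags (other values) mark detection and outlier spots. The authors' second table holds score values, z-scores of log signal. Signals were put on the log2 scale, z-transformed within each array over the non-control spots as in the study, and multiplied by the mean SD of 3.89. Outlier spots were left out and spots of a probe averaged. Probes detected on all arrays of either group (23013) were fitted with limma 3.58.1 in R 4.3.3, and p-values were adjusted by Benjamini-Hochberg. The fit was checked on simulated data.

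The members and lists were chosen with earlier results of these data known. Named were the 6 largest and 3 smallest bounds and the 10 largest among transcripts with several probes. FBtr0076119, FBtr0344971, FBtr0300816, FBtr0091709 and the other transcripts outside this rule were added with their values in view. The gene table (Release 6, names only) paired 20 of 21729 FlyBase probes with a gene. None of the study's 10 listed factors had a named probe, and they were not analysed here. Probe sequences were not used here. The alternatives covered scaling, background, floor, filter, batch and left-out arrays.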

Additional observations from a re-analysis of the deposited data

How the results depend on the processing

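The slide bounds were chosen after seeing the data. The number of WT-only probes, 46, was 27 with the looser flag and from 48 to 79 with 1 array left out, the highest without Top3b26 3 and 71 without WT 2, since fewer arrays ask less of a probe. The count with a bound of at least 8-fold, 17, and the median bound, 2.45 (log2), were 9 and 1.08 under normexp (on median signals with an offset of 50), 33 and 3.73 with the probe's own level and no floor, and from 16 to 21 and from 2.21 to 2.84 with 1 array left out. Of 272 bounds of the 16 named probes under alternatives, 197 moved by less than the WT SD and 0 changed sign, which the choice of members nearly fixes. Under normexp all 16 were smaller, 13 of them by more than the WT SD, a direction that the added offset largely fixes. The count of members called by limma, 29, was 18 with no scaling, 18 under normexp, 14 with the slide as a block, and 10 after adjustment of the 2-group test that the methods name. That 2-group test gave 42 members unadjusted, and 42 at the methods' own limits, a false discovery rate of 0.3 and 1.5-fold. The limma count was from 0 to 32 with 1 array left out, at 9, 0 and 7 without WT 1, 2 and 3 and at 10 and 17 without Top3b26 1 and 3, with fewer residual degrees of freedom in each. Without WT 2, 42 still had an unadjusted p under 0.05. The count among other probes, 1, was 2 under the 75th percentile shift, median-difference scaling and the variance trend, 0 under quantile normalization, no scaling, normexp, no filter and the slide as a block, and from 0 to 2 with 1 array left out, with 3 to 9 at an unadjusted limma p under 0.05 over these settings. The cause was not tested. With the replicate number as a block, 7 members and 0 other probes were called (46 and 5 unadjusted). The deviations of same-numbered arrays had correlations of 0.56, 0.59 and -0.37 across probes. These differ in sign and cannot show whether same-numbered preparations were made together, and the sample titles give replicate numbers only. The main fit used no pairing. The median signal was 57.2 times that of negative controls on Top3b26 2, the lowest of the 6 arrays, and this limits the bounds of faint members.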
